A study of Mus musculus with 40 samples.

Results

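The genes described here are Nqo1 and 9 other genes of the NRF2 antioxidant programme, 10 of the 28467 genes in the bulk table. The list was put together because Nqo1 had the lowest p of all genes in bulk kidney RNA at 24 h after surgery, so the members were chosen by that bulk 24 h p of Nqo1, and the 24 h comparison is described without a test. The members are Nfe2l2 (the gene of the transcription factor NRF2), Gclc, Gclm, Srxn1, Txnrd1, Nqo1, Hmox1, Gstm1, Ugdh and G6pdx. All 10 passed the filter on low counts in each bulk comparison. Kidneys came from male C57BL/6 mice aged 8 to 12 weeks, and no transgene or drug is named in the labels. Mice were given a unilateral nephrectomy (UNx), the removal of 1 kidney, or a sham operation, and the right kidney was analysed in every case. Bulk RNA-seq covered a cross-section of the kidney in 6 sham and 6 UNx mice at each of 24, 48 and 72 h, each library with its own mouse number. Single-nucleus RNA-seq covered 2 sham and 2 UNx mice at 24 h, 1 of each group in labelled batch 3 and 1 of each in batch 4.

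NRF2 is held in the cytoplasm by KEAP1, which hands it to a CUL3 and RBX1 ubiquitin ligase for degradation. Oxidants and electrophiles modify KEAP1, so that NRF2 accumulates, pairs with a small MAF protein and binds antioxidant response elements near genes of glutathione synthesis, thioredoxin reduction, quinone detoxification, haem breakdown and NADPH supply. BACH1 competes for the same elements. In the kidney the pathway is studied mostly in the proximal tubule, whose segments S1, S2 and S3 follow each other and which carries out most of the reabsorption and much of the detoxification of the organ.

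Promoter sequence was read for the members because they share a regulator. RefSeq (GRCm38.p6) gave windows for 8 of the 10 members, 11 windows in all, with no entry for Gclc or Hmox1. The 250 bases before each start were searched on both strands for TGACNNNGC, the core of the antioxidant response element, and for TGAGNNNGC, its close variant. The letters of the 2 forms differ at one base, so they cannot match at one position of a strand. At least 1 form was present in 6 of the 8 members with a window (6 of 11 windows), and in 23.0% of the 32851 RefSeq windows of the same length. TGACNNNGC alone was present in 10.2% and TGAGNNNGC alone in 14.4% of all windows, counting windows with both under each. The windows of Nqo1 and Srxn1 are printed because these members had large differences at 24 h and their windows differ in this feature. Capitals mark the matches. The Srxn1 window is chr2:152105274-152105523, plus strand, and the Nqo1 window is chr8:107403206-107403455, minus strand, each printed in the gene's direction.
Srxn1: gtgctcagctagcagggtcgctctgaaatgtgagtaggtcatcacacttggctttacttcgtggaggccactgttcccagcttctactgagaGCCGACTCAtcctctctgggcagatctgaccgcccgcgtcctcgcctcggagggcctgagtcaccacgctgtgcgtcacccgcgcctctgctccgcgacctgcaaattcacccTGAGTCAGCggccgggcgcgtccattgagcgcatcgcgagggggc
Nqo1: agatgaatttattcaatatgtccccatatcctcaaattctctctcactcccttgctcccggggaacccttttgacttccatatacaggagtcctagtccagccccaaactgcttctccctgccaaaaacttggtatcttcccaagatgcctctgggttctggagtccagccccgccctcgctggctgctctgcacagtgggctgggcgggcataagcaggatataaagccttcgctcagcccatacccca
The Srxn1 window held TGAGTCAGC, which began 45 bases before the start, and a second match on the opposite strand, printed as its reverse complement. The Nqo1 window held neither form, nor did either window of Gstm1. Sequence further than 250 bases before a start was not searched, so a window without a match does not show that the gene lacks an element. Windows of Nfe2l2, Gclm, Ugdh and G6pdx and 1 of the 3 windows of Txnrd1 held TGACNNNGC.

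Levels in bulk RNA are given as CPM (counts scaled to a fixed library size, after TMM), from estimated counts that were not normalized in the deposited table. Library totals ran from 14.9 to 24.1 M estimated counts. The labels give batch 1 for every 24 h library and batch 2 for every later one. Mitochondrially encoded genes took 21.5% to 26.7% of the counts at 24 h and 13.6% to 16.1% in the later shams and in UNx at 72 h. In UNx at 48 h, replicates 1 to 5 stood apart from the other later libraries, at 25.8% to 26.4%, while 48 h UNx replicate 6 was at 15.2%. A score built from 150 pseudogenes, near 0 in the later shams and near 1 in the 24 h shams, was 0.56 to 0.66 in those 5 libraries and 0.0060 in replicate 6. It was 0.61 to 0.86 in the 24 h UNx libraries against 0.95 to 1.05 in the 24 h shams. The members called at 48 h are therefore also given without these 5 libraries. In bulk tissue, fewer cells of a type and less RNA per cell cannot be told apart. The summed level of 8 proximal tubule markers overlapped between sham and UNx at every time, for example 9144 to 10912 CPM in sham and 9672 to 12047 CPM in UNx at 48 h. Of these 8 markers, edgeR called 2 higher and 1 lower at 48 h, where 16.9% and 16.0% of all genes were. Markers of other cell types also differed at 48 h. The summed level of 3 thin limb markers was 866 to 1199 CPM in sham and 691 to 805 CPM in UNx, without overlap. Of these 3, 2 had a lower mean in UNx, 1 of them called lower, and 1 had a higher mean. In sham nuclei their sum was highest in the class MPC (11133 CPM) and next in DTL1 (3547 CPM), so it does not mark thin limb alone. In edgeR, 2 of 3 fibroblast markers were called lower and 2 of 3 mural and renin cell markers higher. Their part in the members' differences was not tested.

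At 24 h, the comparison that chose the list, 7 of the 10 members had a higher mean in UNx, and Nqo1, Hmox1, Srxn1 and Gstm1 had all 6 UNx libraries above all 6 shams. Such a gap, all 6 UNx libraries above all 6 shams, was found for 5.75% of the 14104 genes tested. Nqo1, a quinone reductase, lay at 23.5, 27.1 and 29.5 CPM in sham (lowest, median and highest of 6) and at 45.2, 50.3 and 56.0 CPM in UNx. Its mean was 26.7 ± 2.57 CPM in sham and 50.7 ± 4.07 CPM in UNx (SD, n = 6 each), a log2 fold change of 0.93 (SE 0.0710). The highest sham stood well below the lowest UNx library. Hmox1, the inducible haem oxygenase, lay at 15.8, 19.8 and 22.4 CPM in sham and at 30.3, 34.7 and 38.5 CPM in UNx, a log2 fold change of 0.82 (SE 0.0909). Srxn1 encodes sulfiredoxin, which repairs over-oxidized peroxiredoxins. It lay at 38.0, 41.7 and 43.6 CPM in sham and at 47.7, 59.8 and 66.3 CPM in UNx, a log2 fold change of 0.49 (SE 0.0704). Gstm1, a glutathione transferase of the mu class, lay at 401, 434 and 485 CPM in sham and at 512, 533 and 554 CPM in UNx, a log2 fold change of 0.28 (SE 0.0543). Near-identical mu-class paralogs make the Gstm1 count uncertain.

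The remaining members overlapped between the groups at 24 h. G6pdx, the first enzyme of the NADPH-producing pentose phosphate pathway, lay at 25.5 to 29.5 CPM in sham and 29.3 to 44.9 CPM in UNx, with 5 of 6 UNx libraries above the highest sham. Ugdh, which makes UDP-glucuronic acid for conjugation, lay at 70.1 to 88.5 CPM in sham and 74.7 to 95.1 CPM in UNx. Txnrd1, the cytosolic thioredoxin reductase, lay at 150 to 199.8 CPM in sham and 167 to 216 CPM in UNx. The 2 subunits of glutamate-cysteine ligase, the first step of glutathione synthesis, had slightly lower means in UNx. The catalytic subunit Gclc spread widely, at 329 to 571 CPM in sham and 312 to 553 CPM in UNx, a log2 fold change of −0.08 (SE 0.161). The modifier subunit Gclm lay at 307 to 381 CPM in sham and 279 to 364 CPM in UNx, a log2 fold change of −0.12 (SE 0.0716). Nfe2l2 itself had means of 80.9 ± 3.14 CPM in sham and 80.8 ± 5.54 CPM in UNx, so the RNA of the factor differed by less than the spread between libraries.

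**Figure D1:**
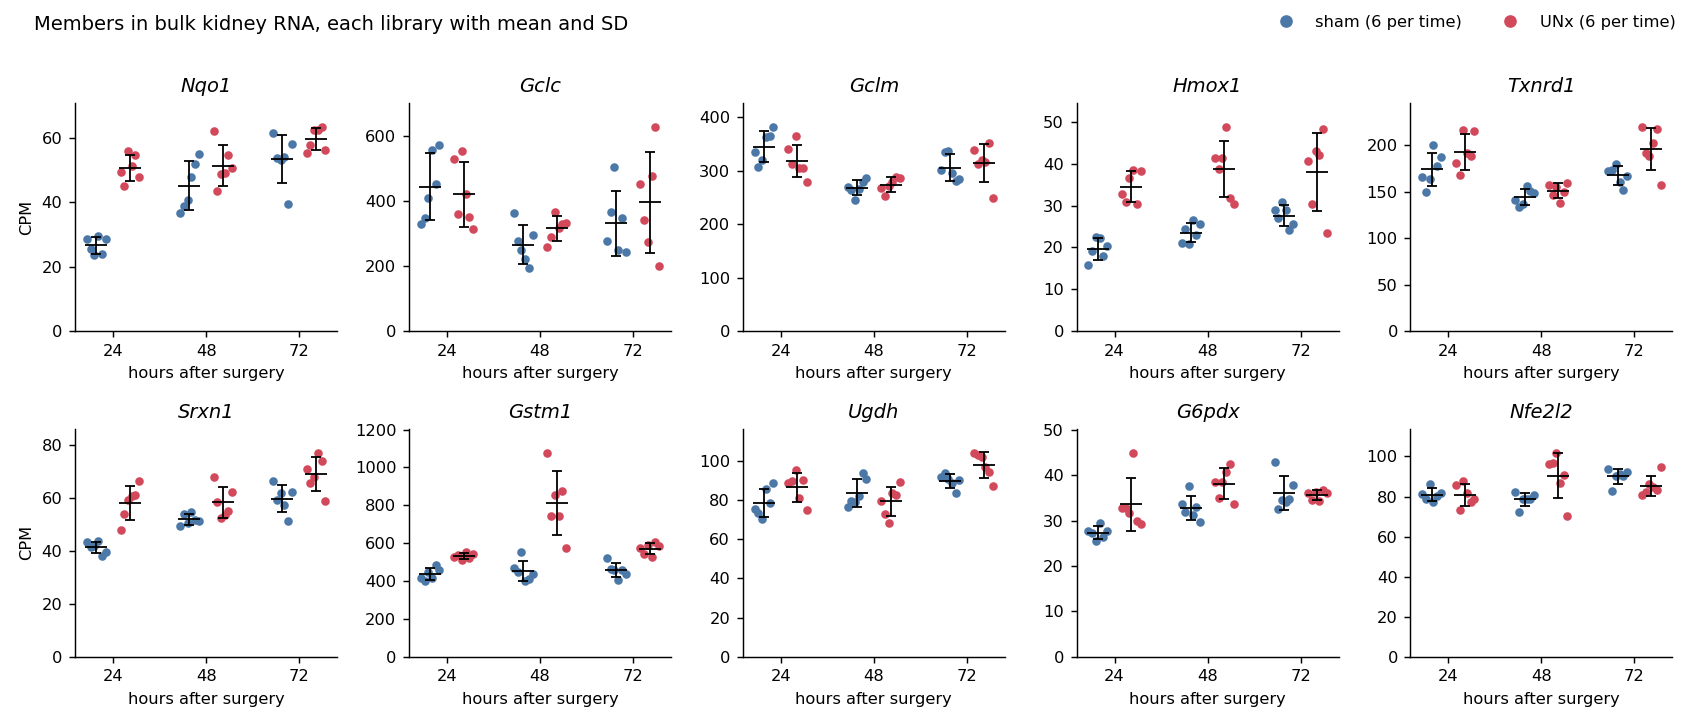
Level of each member in every bulk library (points), with mean and SD (bars), in CPM on axes that start at 0, against hours after surgery; blue is sham and red is UNx, 6 libraries each. At 24 h the 6 UNx libraries of Nqo1 (45.2 to 56.0 CPM) lie above its 6 shams (23.5 to 29.5 CPM), and at 48 h the Gstm1 UNx libraries spread from 572 to 1076 CPM.

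The sham level of Nqo1 was not the same at the 3 times. On 1 scale set over all 36 libraries, Nqo1 averaged 28.7 ± 2.88 CPM in 24 h shams, 45.7 ± 7.70 CPM in 48 h shams and 48.7 ± 6.90 CPM in 72 h shams (SD, n = 6 each). The UNx means were 54.2 ± 4.34, 52.7 ± 6.40 and 54.8 ± 3.63 CPM on the same scale. The 24 h shams, at 25.1 to 31.9 CPM, thus lay below every later sham (35.9 to 56.1 CPM), whereas the UNx groups overlapped at all 3 times. The 48 h and 72 h shams did not differ beyond their spread. The difference between 24 h and the later times cannot be told apart from labelled batch. Gclc went the other way in sham, from 478 ± 112 CPM at 24 h to 268 ± 60.4 CPM at 48 h and 301 ± 91.0 CPM at 72 h. Gstm1 shams stayed within 371 to 558 CPM over the 3 times.

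By Pearson r over the 36 libraries, after subtracting each time point's mean log2 CPM, the 5 genes most like Nqo1 among 9219 others were Trappc3 (0.884), Eno1 (0.879), Idh1 (0.877), Aldh1a7 (0.876) and Surf4 (0.861). These libraries share their time points and the 24 h difference that chose Nqo1. With each group's own mean subtracted, r fell to 0.663, 0.466, 0.662, 0.653 and 0.345 in the same order. Idh1, a cytosolic NADPH-producing dehydrogenase, belongs to the wider NRF2 list described below. Its 24 h levels were 234 to 302 CPM in sham and 334 to 454 CPM in UNx. Among the members, with only time means subtracted, Srxn1 was closest to Nqo1 (r = 0.824, rank 16) and Hmox1 came next (r = 0.701, rank 155). Gclc (r = −0.02), Gclm (r = −0.05) and Nfe2l2 (r = 0.0757) showed little likeness to Nqo1 by that measure. The order changed with each group's own mean subtracted. Ugdh was then at 0.549, Srxn1 at 0.467, Txnrd1 at 0.464, Gclm at 0.359 and Hmox1 at 0.234. G6pdx was at 0.139, Nfe2l2 at 0.063, Gstm1 at 0.041 and Gclc at −0.072.

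At 48 h, 3 of the 10 members were called by edgeR's quasi-likelihood test (Benjamini-Hochberg adjusted p under 0.05 over all genes), all of them higher in UNx. Over all 14280 genes tested, 32.9% were called and 16.9% were called higher. The median log2 fold change of the 10 members was 0.19, against −0.04 over all genes. Hmox1 lay at 20.9, 23.8 and 26.5 CPM in sham (lowest, median and highest) and at 30.4, 40.0 and 48.8 CPM in UNx. All 6 UNx libraries stood above all 6 shams, which held for 6.21% of all genes. The log2 fold change of Hmox1 was 0.72 (SE 0.109, edgeR adjusted p = 0.000617). Gstm1 lay at 402, 442 and 552 CPM in sham and at 572, 800.3 and 1076 CPM in UNx, also without overlap. Its log2 fold change was 0.84 (SE 0.129, edgeR adjusted p = 0.000627), the largest among the members at 48 h. G6pdx lay at 29.8, 32.5 and 37.6 CPM in sham and at 33.6, 38.5 and 42.5 CPM in UNx, so the groups overlapped, with 4 of 6 UNx libraries above the highest sham. Its log2 fold change was 0.21 (SE 0.0730, edgeR adjusted p = 0.0371).

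The 48 h calls were not kept once the 5 UNx libraries that stood apart were adjusted for or left out. With the mitochondrial share or the pseudogene score as a covariate, edgeR called 0 of the 10 members, and 0 of all 14280 genes. High values of both covariates lay in 5 of the 6 UNx libraries, so these fits cannot single out the members. Without those 5 libraries no gene of 15605 passed (0 called), while 2232 reached an unadjusted p under 0.05. In UNx replicate 6 alone, Gstm1 was at 572 CPM, just above the highest sham (552 CPM), and Hmox1 at 30.4 CPM, above the highest sham (26.5 CPM). G6pdx in that library was at 33.6 CPM, inside the sham range. The log2 fold change without the 5 libraries was 0.34 (SE 0.154) for Gstm1, 0.37 (SE 0.139) for Hmox1 and 0.04 (SE 0.121) for G6pdx. The lone UNx library is there assumed to vary like the shams. The part of library composition in the 48 h differences was not tested further.

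**Figure D2:**
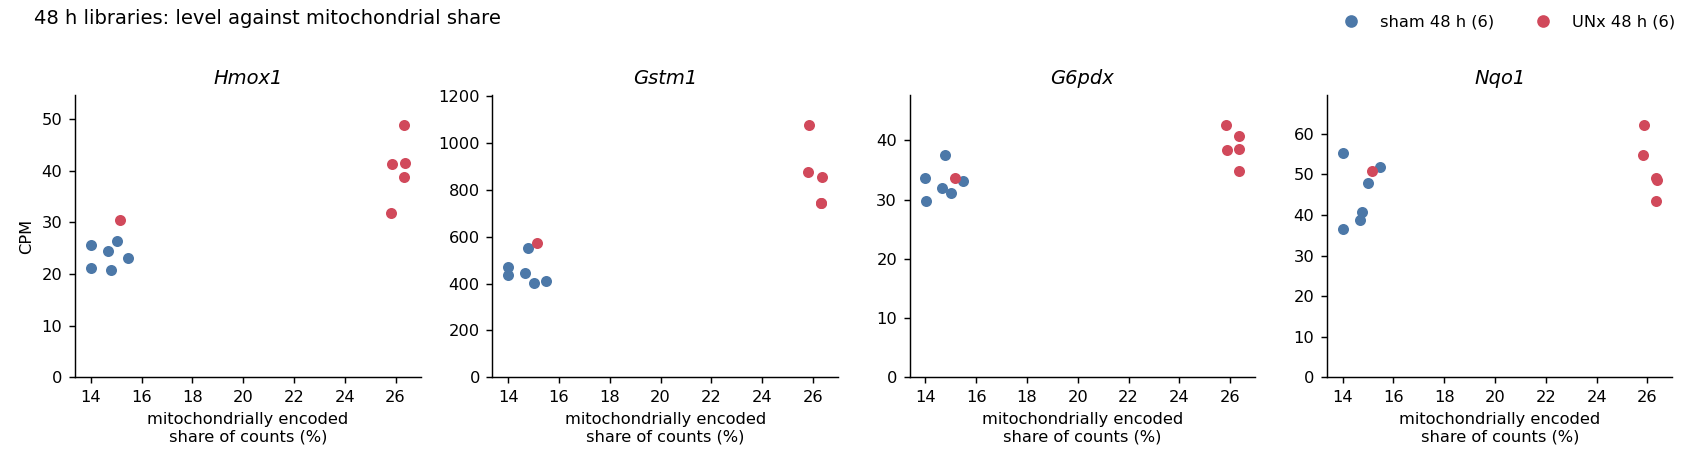
Level of Hmox1, Gstm1, G6pdx and Nqo1 (CPM, axes from 0) against the share of counts from mitochondrially encoded genes in the 12 libraries of 48 h; blue points are sham and red points UNx. The 5 UNx libraries at 25.8% to 26.4% stand to the right, and UNx replicate 6, at 15.2%, lies among the shams on the share axis, with Gstm1 at 572 CPM.

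Hmox1 is also made by macrophages that take up red blood cells. The summed level of 7 macrophage markers was 159 to 299 CPM in sham and 162 to 268 CPM in UNx at 48 h, where 1 of the 7 was called higher and 1 lower. In sham nuclei Csf1r, 1 of these 7, averaged 132 CPM in the proximal tubule class PTS3 and 31.3 CPM over all nuclei. The macrophage sum may therefore not mark macrophages alone. The summed level of 5 red blood cell markers was 416 to 957 CPM in sham and 255 to 642 CPM in UNx. Both sums overlapped between the groups. All 5 red blood cell markers had lower means in UNx at 48 h, with 2 called lower in edgeR, and at 72 h all 5 again had lower means, with 0 called and 5 at an unadjusted p under 0.05. At 24 h all 5 had higher means in UNx, with sums of 110 to 176 CPM in sham and 136 to 196 CPM in UNx. The part of these markers in the Hmox1 values was not tested.

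The other 7 members did not pass the threshold at 48 h. Nqo1 lay at 36.6, 44.3 and 55.2 CPM in sham and at 43.5, 49.97 and 62.1 CPM in UNx. The groups overlapped, with a log2 fold change of 0.19 (SE 0.1101, edgeR adjusted p = 0.200). Srxn1 lay at 49.5 to 54.4 CPM in sham and 52.3 to 67.8 CPM in UNx, a log2 fold change of 0.17 (SE 0.0672, edgeR adjusted p = 0.0693). Nfe2l2 lay at 72.4 to 82.4 CPM in sham. UNx replicates 1 to 5 lay above that, at 86.8 to 102 CPM, and UNx replicate 6 below it, at 70.2 CPM. The log2 fold change of Nfe2l2 was 0.20 (SE 0.0793, edgeR adjusted p = 0.0641) over all 6 and −0.16 (SE 0.0860, edgeR adjusted p = 0.436) without replicates 1 to 5. Gclc (192 to 363 CPM in sham, 259 to 366 CPM in UNx), Gclm, Txnrd1 and Ugdh overlapped between the groups, with log2 fold changes of 0.25, 0.03, 0.06 and −0.08.

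At 72 h, Gstm1 was the 1 member called, higher in UNx, where 1.71% of 14556 genes were called and 1.21% were called higher. It lay at 407, 459 and 521 CPM in sham and at 529, 579.5 and 607 CPM in UNx. No UNx library reached down to the highest sham, which held for 1.31% of all genes. The log2 fold change was 0.32 (SE 0.0609, edgeR adjusted p = 0.0186). The adjusted p was 0.0554 without UNx replicate 5 and 0.0511 without sham replicate 6, so the call was lost without either library. Gstm1 was called under all 9 other settings that kept every library.

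The median log2 fold change of the 10 members at 72 h was 0.18, against −0.00 over all genes. Hmox1 lay at 24.1, 28.0 and 30.8 CPM in sham and at 23.5, 41.4 and 48.4 CPM in UNx, a log2 fold change of 0.46 (SE 0.144, edgeR adjusted p = 0.118). UNx replicate 6 was its lowest library of either group and 4 UNx libraries lay above the highest sham. The same library was low for Txnrd1 (157 CPM against 188 to 219 CPM in the other UNx libraries), Srxn1 (58.8 against 65.5 to 76.8 CPM), Gclm (248 against 313 to 351 CPM) and Gclc (198 against 273 to 626 CPM). It was the highest UNx library for Nfe2l2, at 94.9 CPM against 80.9 to 86.5 CPM. Without UNx replicate 6, edgeR called 4 members, all higher: Gstm1, Hmox1 (log2 fold change 0.57, adjusted p = 0.0113), Txnrd1 (0.28, adjusted p = 0.0190) and Srxn1 (0.25, adjusted p = 0.0453). The share of all genes called was then 4.63%. With all libraries, Txnrd1 had a log2 fold change of 0.22 (SE 0.0749, edgeR adjusted p = 0.143), and Srxn1 of 0.21 (SE 0.0710, edgeR adjusted p = 0.151).

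Nqo1 lay at 39.6, 54.0 and 61.8 CPM in 72 h shams and at 55.5, 60.2 and 63.4 CPM in UNx, a log2 fold change of 0.16 (SE 0.0855, edgeR adjusted p = 0.368). Sham replicate 5, at 39.6 CPM, stood below the other shams (53.3 to 61.8 CPM), and the log2 fold change without it was 0.08. Ugdh lay at 83.6 to 94.0 CPM in sham and 87.0 to 104 CPM in UNx. Gclc reached from 198 to 626 CPM in UNx. G6pdx and Nfe2l2 had slightly lower means in UNx, with log2 fold changes of −0.02 and −0.08.

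**Figure D3:**
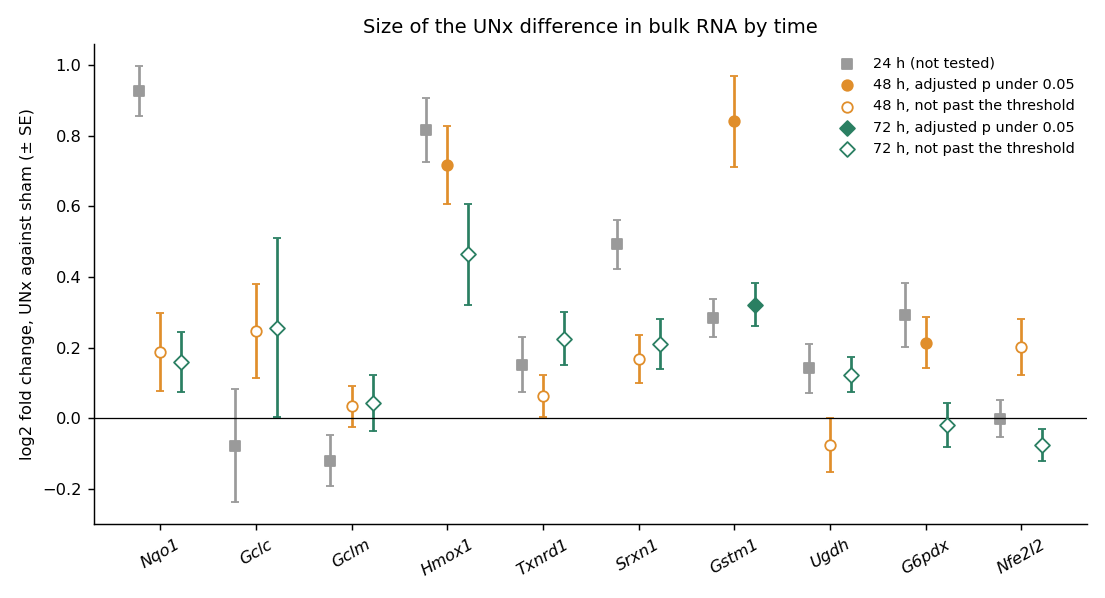
Log2 fold change of each member, UNx against sham, with its standard error, at 24 h (grey squares, not tested), 48 h (orange) and 72 h (green); filled orange and green symbols passed the threshold in edgeR. Nqo1 stands at 0.93 at 24 h and at 0.19 and 0.16 later, whereas Gstm1 stands at 0.28, 0.84 and 0.32.

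The difference between the 72 h and the 48 h effects was tested in 1 fit over the 24 libraries of batch 2. Of the 10 members, 2 were called, both with a smaller effect at 72 h, where 7.49% of 14918 genes were called in that direction. The difference was −0.53 (SE 0.149, edgeR adjusted p = 0.0224) for Gstm1 and −0.29 (SE 0.0939, edgeR adjusted p = 0.0437) for Nfe2l2. Without the 5 UNx libraries of 48 h that stood apart, the differences became −0.01 and 0.09 and neither was called. The Nfe2l2 call was kept in 9 of 24 fits that left out 1 library and that of Gstm1 in 24 of 24. For Nqo1 the difference was −0.04 (SE 0.145, edgeR adjusted p = 0.879).

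A wider list of 48 further NRF2 targets and regulators, 44 of which passed the filter at each time, gave the setting of the members. At 24 h, 35 of 44 had a higher mean in UNx and 9 a lower one. Their median log2 fold change was 0.18, against 0.01 over all genes. This is the comparison that chose the members, and the counts are a description. The share of all genes with a higher mean was not worked out. Of the 3 genes of glutathione synthesis and recycling that passed the filter, 2 had a lower mean, and the median of the 3 was −0.13. Txn1 (thioredoxin) was at 77.8 to 87.4 CPM in sham and 106 to 135 CPM in UNx, and Prdx1 (a peroxiredoxin) at 327 to 359 CPM in sham and 384 to 556 CPM in UNx. At 48 h, 11 of 44 were called higher and 2 lower in edgeR, where 16.9% and 16.0% of all genes were. The 3 with the lowest p among those called higher were Fth1, Gstp1 and Ggt1. Fth1, the ferritin heavy chain, was at 2612 to 2936 CPM in sham and 3692 to 4745 CPM in UNx; edgeR gave 0.65 on the log2 scale (SE 0.0827, adjusted p = 0.000346). Gstp1, a glutathione transferase of the pi class, was at 99.8 to 126 CPM and 141 to 278 CPM; edgeR gave 0.70 on the log2 scale (SE 0.140, adjusted p = 0.00253). Ggt1, which splits extracellular glutathione at the brush border, was at 765 to 908 CPM and 957 to 1283 CPM; edgeR gave 0.39 on the log2 scale (SE 0.0799, adjusted p = 0.00298). Fth1 and Gstp1 have close copies in the genome, so their counts are uncertain. At 72 h, 0 of 44 were called in edgeR and 3 had an unadjusted p under 0.05. Without UNx replicates 1 to 5, 0 of the list were called at 48 h.

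Among the 10 regulators and partners, Bach1 and Rbx1 were the 2 genes of the wider list called lower at 48 h. Bach1 was at 25.2 to 33.8 CPM in sham and 19.3 to 25.9 CPM in UNx, a log2 fold change of −0.41 (SE 0.0867, edgeR adjusted p = 0.00337), with 5 of 6 UNx libraries below the lowest sham. Rbx1 was at 41.5 to 45.4 CPM in sham and 31.6 to 47.5 CPM in UNx, a log2 fold change of −0.30 (SE 0.0916, edgeR adjusted p = 0.0232). Keap1 was called higher, from 31.0 to 34.7 CPM in sham to 31.8 to 40.8 CPM in UNx, a log2 fold change of 0.19 (SE 0.0668, edgeR adjusted p = 0.0380). Without UNx replicates 1 to 5 the log2 fold changes of Rbx1 and Keap1 turned to 0.13 and −0.03 and none of the 3 was called. Cul3 (−0.00, edgeR adjusted p = 0.966), Sqstm1 (0.11), Nfe2l1 (−0.07), Bach2 (0.06), Mafk (−0.11), Mafg (−0.22) and the barely detected Maff (−0.58, 0.87 to 2.37 CPM over both groups) did not pass the threshold at 48 h. At 72 h none of the 10 was called by edgeR and 0 had an unadjusted p under 0.05, and their log2 fold changes ran from −0.20 (Maff) to 0.10 (Keap1).

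A further 12 antioxidant enzymes, such as superoxide dismutases, catalase and glutathione peroxidases, were not used here as NRF2 readouts. Whether NRF2 acts on them was not tested. At 48 h edgeR called 7 of these 12 higher, with a median log2 fold change of 0.38, against 3 of 10 and 0.19 for the members. That count stands beside 16.9% of all genes called higher, and without UNx replicates 1 to 5 no gene was called (0 of 15605). At 72 h 0 of 12 were called, with 2 at an unadjusted p under 0.05, and the median was 0.05. At 24 h 7 of the 12 had a higher mean in UNx and 5 a lower one, with a median of 0.02. The members' median at 24 h was 0.22, but that comparison chose them, so the 2 medians cannot be weighed against each other.

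The nuclei came from other mice than the bulk libraries and were not used to choose the list. The deposited table holds 16500 nuclei, between 2641 and 5342 per mouse, and 18 barcodes occur in more than 1 library. Class names are given as in the authors' annotation. For each mouse, counts were added up across its nuclei, and again within each of the 23 annotated classes that held at least 10 nuclei in every mouse. The proximal tubule classes were checked with 8 markers. Slc34a1, Slc5a12 and Slc5a2 were highest in the class labelled PTS1, Lrp2, Cubn and Slc22a6 in PTS2, and Slc22a7 and Slc7a13 in PTS3. The annotation also exists in a finer form in which UNx nuclei have proximal tubule clusters of their own. Of the PTS3 nuclei, 99.2% and 96.7% in the sham mice lay in the cluster named PTS3, and 100% and 99.3% in the UNx mice in that named UNx PTS3. For PTS2 and PTS1 the split was much the same, with 85.8% of PTS1 nuclei of the second UNx mouse in UNx PTS1 as its lowest value. Values within these classes therefore compare different clusters of the same named segment.

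In sham nuclei, Nqo1, Gclc and Gclm were highest in PTS3. Nqo1 averaged 50.2 CPM there and 43.1 CPM in Uro, the class with the next highest mean; the sham mice were at 67.0 and 33.4 CPM in PTS3, so these classes did not differ beyond the spread. Gclc averaged 3524 CPM in PTS3, 828 CPM in PTS2 and 298 CPM in the median class. Gclm averaged 432 CPM in PTS3 and 315 CPM in PTS2. A pseudogene, Gm6061, overlaps it on the same strand, which makes its count uncertain. Other genes overlap Ugdh (Gm43552 and Gm43289), Txnrd1 (Eid3) and Nfe2l2 (Gm24996) on the same strand, so their counts carry the same limit. Txnrd1 was even over classes, highest in PTS2 (92.5 CPM) and MD (89.9 CPM, on 8 UMIs in each sham mouse). Ugdh, Gstm1 and G6pdx were highest in Uro, at 178, 263 and 27.5 CPM, followed by PTS3 (98.7 CPM), DTL1 (143 CPM) and MPC (24.2 CPM). For G6pdx this order lay within the spread. Its sham mice were at 22.6 and 32.5 CPM in Uro, on 10 and 25 UMIs, and at 30.5 and 17.9 CPM in MPC. Nfe2l2 was highest in ICB (302 CPM) and MD (251 CPM). Hmox1 (ATL 6.17 CPM, Fib 5.23 CPM) and Srxn1 (PEC 13.2 CPM, EC2 10.9 CPM) were too sparse for an order, Hmox1 with 130 to 250 UMIs per mouse over all nuclei.

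**Figure D4:**
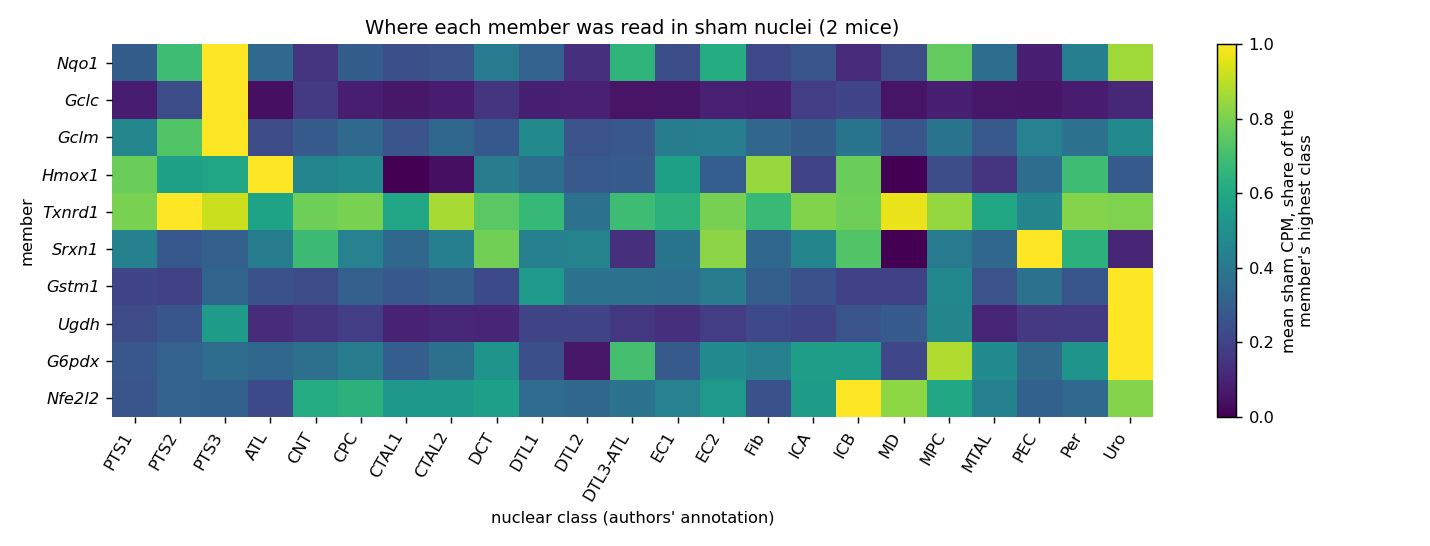
Mean CPM of each member in the 2 sham mice by nuclear class (columns, the authors' annotation), as a share of that member's highest class, from 0 (dark) to 1 (yellow). Gclc is concentrated in PTS3 (3524 CPM against 828 CPM in PTS2), whereas Txnrd1 is spread over most classes.

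Over all nuclei at 24 h, edgeR without a batch term called 0 of the 10 members, 0 of 19975 genes in all, and 360 genes had an unadjusted p under 0.05, Gclc and Ugdh among them. With 2 mice against 2 this fit called no gene in any class. The replicate number marks the labelled batch, and with it as a block edgeR called 0.501% of genes higher over all nuclei and 0.536% lower. Gstm1 over all nuclei differed between the batches, at 41.1 and 42.2 CPM in the sham and UNx mouse of batch 3 and 105 and 116 CPM in those of batch 4. The part of batch in the unblocked p-values was not tested.

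Gclc had the largest difference among the members in nuclei, and it was lower in UNx. In PTS3 it was at 4583 and 2465 CPM in the 2 sham mice and at 810 and 815 CPM in the 2 UNx mice. Both UNx mice lay below both shams, and the share of all genes with such a gap was not worked out. The log2 fold change was −2.14 (SE 0.439, edgeR adjusted p = 1.00 without the block) and −2.05 (SE 0.236, adjusted p = 0.00130) with the replicate block. DESeq2 gave an adjusted p of 0.00459. In PTS2 it was at 833 and 823 CPM in sham and 222 and 357 CPM in UNx. That is a log2 fold change of −1.51 (SE 0.296, edgeR adjusted p = 1.00), or −1.55 with the replicate block (SE 0.193, adjusted p = 0.00171), and DESeq2 gave 0.0180. With the block, 1.62% of all genes in PTS3 and 1.81% in PTS2 were called lower, and with DESeq2 0.162% and 0.196%.

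The lower Gclc level was seen across the PTS3 nuclei of a mouse, not in a few of them. The median nucleus was at 4097 and 2277 CPM in the sham mice and at 633 and 701 CPM in the UNx mice, and the lower quartile of each sham mouse (2710 and 1277 CPM) lay above the upper quartile of each UNx mouse (1080 and 1145 CPM). In PTS1, Gclc was at 171 and 357 CPM in sham and 105 and 238 CPM in UNx, a log2 fold change of −0.55 (SE 0.552) that did not pass the threshold with the block either (edgeR adjusted p = 0.0567). Over all nuclei it was at 1002 and 695 CPM in sham and 291 and 404 CPM in UNx, with a log2 fold change of −1.18 (SE 0.297) and an edgeR adjusted p of 0.0860 with the block. PTS3 held 69.2% and 39.8% of all Gclc UMIs in the sham mice and 42.8% and 36.8% in the UNx mice, from 7.99% to 13.5% of the nuclei. Gclc was lower in UNx in both batches in 11 of 23 classes and higher in both in 4. These classes come from the same 4 mice, and the share over all genes was not worked out. In CNT it was at 572 and 612 CPM in sham and 406 and 395 CPM in UNx. In ICB, the class with the third highest sham level, the pairs were level, at 903 and 934 CPM in batch 3 and 560.0 and 574 CPM in batch 4. Droplets also hold free RNA. The proximal tubule marker Slc34a1 averaged 5857 CPM in sham PTS1, and its median over all 23 classes was 1152 CPM. Slc7a13 averaged 3029 CPM in sham PTS3, and its median over all 23 classes was 145 CPM. The part of free RNA in the levels of Gclc and the other members outside the proximal tubule was not tested. The bulk kidney at the same time, from other mice, gave means of 444 ± 102 CPM in sham and 420 ± 99.9 CPM in UNx.

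Over all nuclei and in PTS3, Ugdh and Txnrd1 were at higher levels in UNx than in sham within both batches. Ugdh over all nuclei was at 50.3 and 45.8 CPM in sham and 73.0 and 66.9 CPM in UNx, a log2 fold change of 0.61 (SE 0.142, edgeR adjusted p = 1.00 without the block and 0.0459 with it). In PTS3 it was at 133 and 64.5 CPM in sham and 210 and 131 CPM in UNx, where the first sham mouse and the second UNx mouse overlapped. The PTS3 log2 fold change was 0.83 with the block (SE 0.163, edgeR adjusted p = 0.0254), in a class where 0.850% of genes were called higher. Ugdh was higher in UNx in both batches in 9 of 23 classes and lower in both in 2. One of these was Uro, at 163 and 194 CPM in sham and 112 and 148 CPM in UNx. Txnrd1 in PTS3 was at 79.8 and 90.8 CPM in sham and 123 and 147 CPM in UNx. Its log2 fold change there was 0.65 with the block (SE 0.146, edgeR adjusted p = 0.0459). Txnrd1 was higher in UNx in both batches in 18 of 23 classes and lower in both in 0. All classes come from the same 4 mice, so such counts are not separate observations. Their share over all genes was not worked out. In the class CTAL1 it was at 41.0 and 68.8 CPM in sham and 74.4 and 133 CPM in UNx, a log2 fold change of 0.96 with the block (SE 0.214, edgeR adjusted p = 0.0259), where 0.340% of genes were called higher. Over all nuclei it did not pass the threshold with the block (edgeR adjusted p = 0.0648). DESeq2 called neither gene in these classes.

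Nqo1 over all nuclei was at 28.6 and 21.6 CPM in sham and 31.0 and 33.7 CPM in UNx, a log2 fold change of 0.45 (SE 0.217). Both UNx mice lay above both shams, but the blocked edgeR adjusted p was 0.243. The share of all genes with such a gap was not worked out. In PTS3 it was at 67.0 and 33.4 CPM in sham and 78.0 and 48.2 CPM in UNx, higher in UNx within each batch, with an overlap between mice. In PTS2 the pairs disagreed, at 42.6 and 38.6 CPM in batch 3 and 26.6 and 37.0 CPM in batch 4. The bulk log2 fold change of Nqo1 at the same time was 0.93. Hmox1 over all nuclei was at 3.00 and 3.67 CPM in sham and 5.04 and 5.79 CPM in UNx (blocked edgeR adjusted p = 0.137). In PTS2, on 29 and 16 UMIs in sham and 107 and 43 in UNx, its log2 fold change was 1.33 with the block (edgeR adjusted p = 0.0657). Srxn1 over all nuclei was at 4.04 and 7.06 CPM in sham and 5.49 and 10.1 CPM in UNx (blocked edgeR adjusted p = 0.181). Nfe2l2, Gclm, Gstm1 and G6pdx over all nuclei had log2 fold changes of −0.00, 0.04, 0.20 and 0.19, and none passed the threshold with the block.

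Over the 23 classes, 172 of 230 member and class pairs passed the filter on low counts. In edgeR 0 were called without the block, with 4 at an unadjusted p under 0.05. With the block 5 were called: Gclc in PTS2 and PTS3, lower, and Ugdh in PTS3 and Txnrd1 in PTS3 and CTAL1, higher. Over all genes, 0.720% of gene and class pairs were called with the block. DESeq2 called the 2 Gclc pairs.

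**Figure D5:**
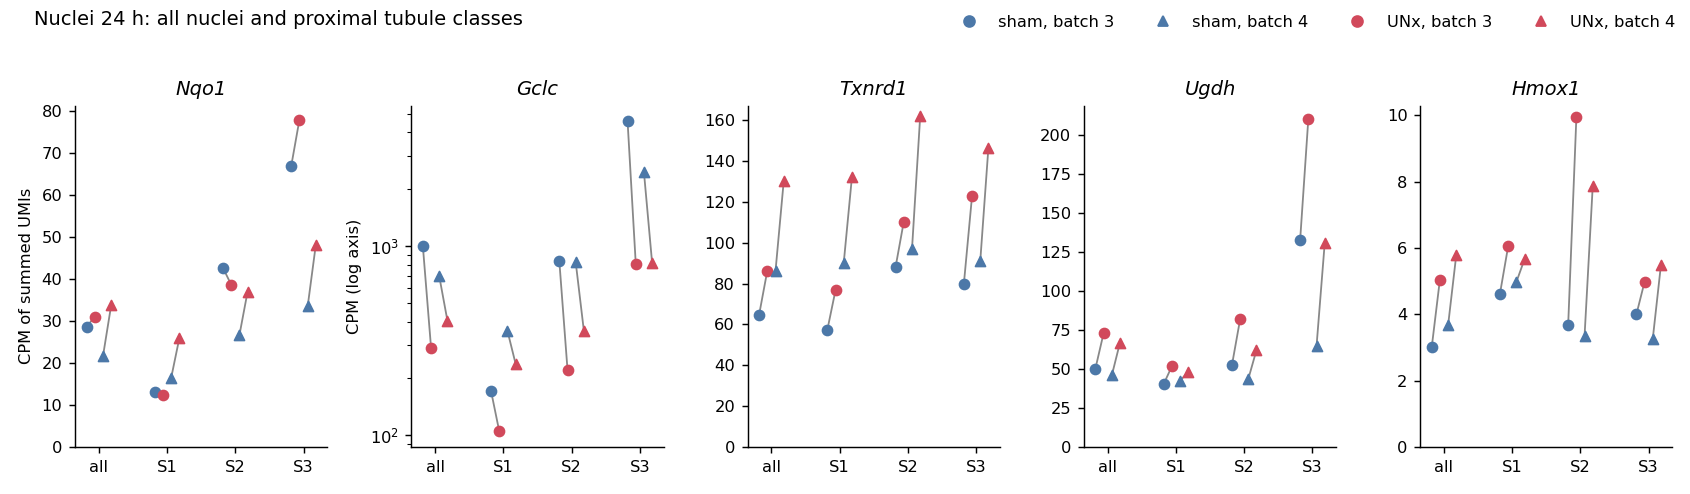
CPM of 5 members in all nuclei and in proximal tubule classes S1, S2 and S3 for each of the 4 mice at 24 h; circles are batch 3, triangles batch 4, blue sham, red UNx, and grey lines join the mice of 1 batch. The Gclc axis is logarithmic, and its S3 values go from 4583 and 2465 CPM in sham to 810 and 815 CPM in UNx.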

How the data were processed

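The labels put 6 sham and 6 UNx bulk libraries at each of 3 times, and 2 sham and 2 UNx nucleus libraries at 24 h. Bulk values are the authors' deposited estimated counts per gene, not normalized; FastQC 0.11.8, Salmon 1.5.0 and R 4.10 with the build GRCm39 are listed in the submitters' processing notes. Nucleus values are deposited estimated UMI counts from alevin and Seurat on mm10, per the same notes. Of the values, 34.1% (bulk) and 13.9% (nuclei, above 0) are not whole numbers. The sources used here do not give settings, the filter on nuclei or any doublet removal; doublets were not called here. Class names are the authors' deposited annotation.

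Counts were rounded, nuclei after summing per mouse and class, so the mouse is the replicate. Genes were tested with edgeR 4.0.16 in R 4.3.3 (filterByExpr, TMM, quasi-likelihood, two-sided), within each time point, with Benjamini-Hochberg adjustment over all genes of a comparison and a threshold of 0.05. Standard errors come from each log2 fold change and its F statistic (log2 value over the root of F). Nuclei of 1 replicate number share a labelled batch, and deviations of such pairs correlated (r = 0.806 over all nuclei), so blocked values stand beside results they change. Alternatives used DESeq2 1.42.0 and limma 3.58.1. Scripts were tested on simulated data. The members, the wider lists and the rules were chosen with earlier results of these data known. All members are named; of the wider list, the 3 called genes with the lowest p per direction and all regulators. Values of Idh1, Txn1 and Prdx1 were chosen after they were seen; the 5 genes most like Nqo1 follow a rule on Pearson r.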

Additional observations from a re-analysis of the deposited data

Results flagged for a closer look

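In 3 of 60 groups of 6 bulk libraries (10 members, 6 groups each), 1 library lay far from the other 5 by Dixon's criterion; chance gives about 1 in 20. Gclm in UNx 72 h replicate 6 was at 248 CPM. G6pdx in UNx 24 h replicate 4 was at 44.9 CPM. Nfe2l2 in sham 72 h replicate 2 was at 82.6 CPM.

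The UNx effect differed between 72 h and 48 h for 2 members in edgeR: by −0.53 on the log2 scale for Gstm1 (adjusted p = 0.0224) and by −0.29 for Nfe2l2 (adjusted p = 0.0437). Both were lost without UNx replicates 1 to 5 of 48 h (−0.01 and 0.09).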

How the results depend on the processing

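Of the members, 3 were called at 48 h; 5 were called with DESeq2 size factors, without mitochondrially encoded genes, with all 36 libraries in 1 fit and with DESeq2's own test, and 0 with the mitochondrial share or the pseudogene score as a covariate or with UNx libraries 1 to 5 left out. With either covariate 0 of all 14280 genes were called at 48 h. Leaving out 1 library gave 2 to 4 members. Of the wider list 13 were called, 0 under those 3 settings, and 8 (without UNx replicate 4) to 16 with 1 library left out. At 72 h 1 member was called, 2 with all 36 libraries or DESeq2, 4 with limma voom, and 0 to 4 with 1 library left out; the wider list stayed at 0. For the difference between 72 h and 48 h, 2 members were called, 1 with no filter on low counts, 0 with either covariate or without the 5 libraries, 4 with limma voom, and 1 to 3 with 1 library left out. For that difference either covariate left 0 of all 14918 genes called. At 24 h the number of members with a higher mean, 7, became 7 to 9 with 1 library left out.

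In bulk the replicate numbers do not mark a shared source, and pairs with the same number correlated at r = −0.29 to 0.14, with the own number giving the best match in 2 of 18 cases. With the number as a replicate block, 1 member was called for the difference between 72 h and 48 h, and the counts of members at 48 h (3) and 72 h (1) stayed. In nuclei, where the number marks the batch, the unblocked edgeR fit gave 0 calls. The replicate block gave 1 call over all nuclei, 1 in PTS2, 3 in PTS3 and 1 in the other classes. DESeq2 gave 1 in PTS2 and 1 in PTS3. Fits that left out 1 mouse were edgeR fits without the block, so they do not check the blocked or DESeq2 calls.

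Some directions turned. With the mitochondrial share as a covariate, with the pseudogene score, and without the 5 libraries, in that order, the 48 h values were 0.086, 0.14 and 0.094 for Ugdh, −0.17, −0.15 and −0.16 for Nfe2l2, −0.050, −0.023 and −0.034 for Keap1, 0.12, 0.14 and 0.15 for Cul3, 0.14, 0.11 and 0.13 for Rbx1, and −0.16, −0.14 and −0.15 for Bach2. Cul3 was at 0.017 with DESeq2 size factors, 0.016 without mitochondrially encoded genes, 0.018 with DESeq2 and 0.015 with all 36 libraries; with 1 library left out it ran from −0.026 to 0.012, and Bach2 from −0.028 to 0.13. At 72 h the mitochondrial covariate gave −0.052 for Gclc and −0.035 for Gclm, the pseudogene score −0.0002 for Gclm, and G6pdx ran from −0.048 to 0.036 with 1 library left out. The Nfe2l2 difference between times was 0.029 with the mitochondrial covariate and 0.094 without the 5 libraries. In nuclei with 1 mouse left out, Gclc in PTS1 ran from −1.24 to 0.049 and Srxn1 over all nuclei from −0.059 to 1.14. The cause of these changes was not tested. With 2 mice a group, and Hmox1 at 130 to 250 and Srxn1 at 180 to 383 UMIs per mouse, the nuclei limit what can be detected.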
